A study of Homo sapiens with 5 samples.

Results

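The 2 small interfering RNAs against AURKA, siAURKA-1 and siAURKA-2, were set directly against each other in GFP-SAS, a line from a human squamous carcinoma of the tongue that carries green fluorescent protein. The comparison uses 2 of the 5 arrays of the series, those whose treatment labels name siAURKA-1 and siAURKA-2, and describes each of 18239 genes by its log2 value with siAURKA-1 minus that with siAURKA-2. Both cultures received 10 nM of their siRNA for 24 h, and total RNA was read on Affymetrix GeneAtlas arrays. The other 3 arrays held cells given 100 nM MLN8237 (alisertib, an Aurora kinase A inhibitor), a non-targeting siRNA (siNT) or DMSO vehicle for the same time. For siNT no dose is stated, since the wording of the treatment protocol leaves it ambiguous. The sequences of the siRNAs were not used here. Every group was 1 array of 1 cell line, so no difference below has a replicate check, no test was possible, and precision is limited by the number of arrays.

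A small interfering RNA is loaded into an Argonaute protein, where its guide strand pairs with a matching mRNA and directs its cleavage. The AURKA product, Aurora kinase A, acts at centrosomes and on the mitotic spindle. The comparison asks how alike the expression profiles of reagents aimed at 1 mRNA were. In squamous epithelium, basal cells divide and anchor to the basement membrane through integrins and keratins such as KRT5, while upper layers switch on differentiation genes. Keratinocytes also release chemokines and interleukin-1 through the transcription factor NF-kB.

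Deposited values had been centred on the median of the 5 arrays for each probe set, so 0 means the middle array of the series and a value does not say how abundant an mRNA is. The squamous identity of the line could therefore not be checked from levels. Leukocyte, fibroblast and endothelial marker lists had medians of 0.00, 0.00 and -0.005 (siAURKA-1 minus siAURKA-2, log2), and none of their 13, 12 and 12 measured members was 1.5-fold apart between the siRNA arrays. The actin and GAPDH probe sets that serve as RNA quality controls differed by 0.07 to 0.19, with similar values for their 5′, middle and 3′ parts. The 15 labelling spike-in probe sets differed by -0.14 to 0.27. For most of them the DMSO array was the lowest of the 5, down to -0.90 with siNT at 0.00. Whether this affects the comparisons with DMSO below was not tested.

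The target was low on both siRNA arrays, to different depths. AURKA, read by 1 probe set, read -3.36 with siAURKA-1 and -2.64 with siAURKA-2, against 0.64 with MLN8237, 0.00 with siNT and 0.15 with DMSO. Both siRNA arrays lay below all 3 other arrays, and siAURKA-1 lay 1.65-fold below siAURKA-2 (log2 difference -0.72). The part that this unequal depth plays in the differences below was not tested. Among the other measured Aurora A partners, HMMR, a spindle protein, stood furthest apart, at -1.13 with siAURKA-1 and 0.32 with siAURKA-2 (difference -1.45). TPX2, which activates Aurora A on spindle microtubules, differed by -0.45, and CKAP5, a microtubule polymerase, by -0.50. NEDD1, which recruits gamma-tubulin to spindles, went the other way by 0.28, and PLK1, BORA, CEP192 and FZR1 differed by at most 0.13 in size. Small differences were also seen in BUB1B (-0.35), NEDD9 (-0.23), TACC3 (-0.21) and AJUBA (-0.18), and AJUBA was low with both siRNAs (-0.70 and -0.51). Probe sets disagreed for CEP192 (-0.46 and 0.34) and ranged from -1.29 to -0.08 for NEDD9. Counting AURKA, 2 of the 13 genes were lower with siAURKA-1 by at least 1.5-fold, where 3.99% of all genes were, and 0 were that much higher.

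Between the siRNA arrays 394 of 18239 genes (2.16%) were at least 2-fold apart, with 177 higher with siAURKA-1 (0.97%) and 217 lower (1.19%). At 1.5-fold the count was 1398 (7.66%), and at 3-fold it was 87 (0.477%), with 36 higher (0.197%) and 51 lower (0.28%). No other of the 10 pairs of arrays had as many. The siAURKA-1 array differed at least 2-fold from MLN8237, siNT and DMSO in 320, 358 and 323 genes and the siAURKA-2 array in 168, 230 and 234, while the 3 remaining arrays differed among themselves in 12 to 54. The probe sets of a gene read the same RNA and are not replicates. Of the 266 genes at least 2-fold apart that had several probe sets, 247 had all of them in one direction (92.9%). Every probe set was at least 2-fold apart in 112. The share in one direction among all genes with several probe sets was 41.7%. The 2-fold genes were chosen by the median of these same probe sets, so their agreement is partly built in and the contrast supports nothing. The genes nearest the threshold were SLC71A2 (2.007-fold) and YIPF5 (2.008-fold) just inside and CEP43 and CRKL (both 1.999-fold) just outside on the higher side. On the lower side FAM229B (2.0002-fold) was just inside and PRMT9 (1.9995-fold) and ZNF273 (1.9994-fold) were just outside.

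Each of the 394 genes was placed by its difference from the median of the MLN8237, siNT and DMSO arrays. In 138 genes siAURKA-1 alone stood apart, at least 2-fold from that median with siAURKA-2 within 1.5-fold of it, and 90 of them were lower with siAURKA-1 and 48 higher. In 71 genes siAURKA-2 alone stood apart, with 48 lower and 23 higher on its array, and against DMSO alone these were 50 and 45. The siRNAs went opposite ways by at least 1.5-fold each in 58 genes, 40 of them lower with siAURKA-1 and higher with siAURKA-2. In 5 genes both lay on the same side by at least 1.5-fold, among them AHNAK2, encoding a large scaffold protein (above that median by 2.62 with siAURKA-1 and 1.19 with siAURKA-2). Against siNT alone 13 genes met that condition, and against DMSO alone 10. The remaining 122 met none of these conditions. Genes shifted alike by both siRNAs, such as AURKA, MCM2, CDKN1A and GDF15, are not among the 394, which were chosen for differing between the siRNAs. The small number on the same side is therefore built into the choice and does not say how much the siRNAs share.

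**Figure D1:**
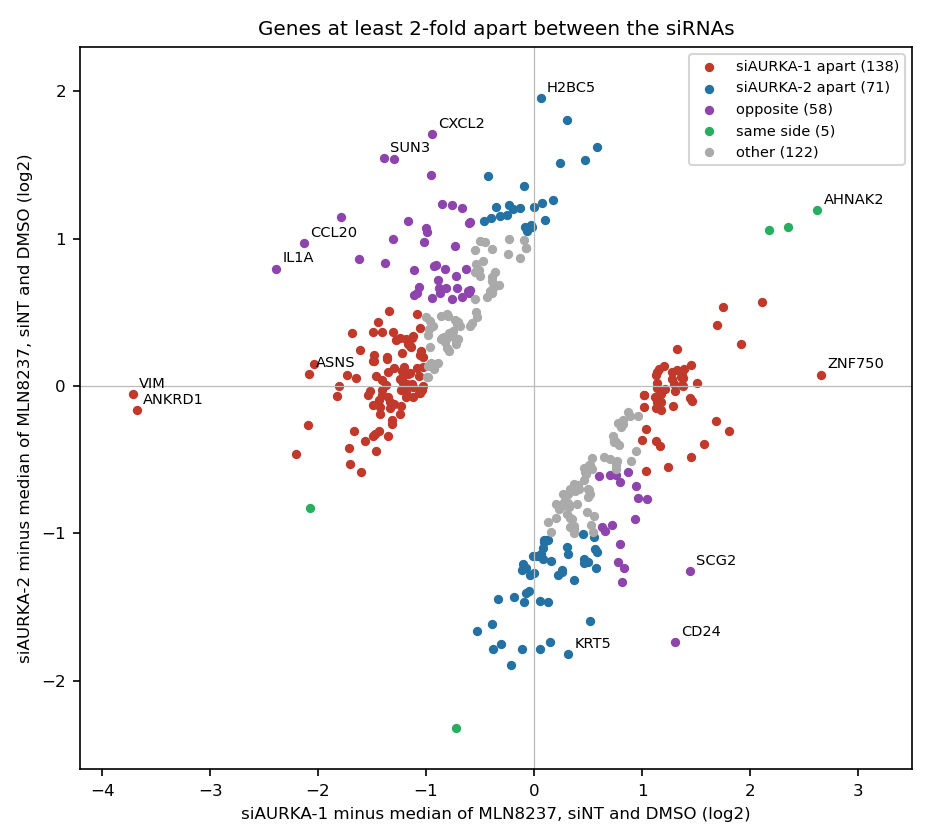
Position of the 394 genes at least 2-fold apart between the siRNAs: the horizontal axis is siAURKA-1 and the vertical axis siAURKA-2, each minus the median of the MLN8237, siNT and DMSO arrays (log2), and colours give the placement with its number of genes. VIM and ANKRD1 lie far left near 0 on the vertical axis, IL1A, CCL20 and CXCL2 at upper left, ZNF750 far right near 0, and KRT5 and CD24 low.

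Genes at the lower end, with siAURKA-1 below siAURKA-2, were led by 2 for which siAURKA-2 lay at the middle of the arrays. VIM, encoding the intermediate filament vimentin of mesenchymal and migrating cells, had values of -3.66 with siAURKA-1, 0.00 with siAURKA-2, 0.14 with MLN8237, 0.06 with siNT and -1.68 with DMSO. ANKRD1, an ankyrin repeat protein induced by YAP, had -3.51, 0.00, 0.16, 0.47 and -1.08 in the same order. For both genes the siAURKA-1 array was the lowest, DMSO was the next lowest, and the other 3 arrays lay close together. VIM was 12.6-fold and ANKRD1 11.4-fold lower with siAURKA-1 than siAURKA-2, the VIM value over 2 probe sets (-3.84 and -3.47). MOCS2, needed to make the molybdenum cofactor, and GLTP, a glycolipid transfer protein, were also low with siAURKA-1 alone (-2.04 and -1.69, with siAURKA-2 at 0.15 and 0.36). OGFRL1 had -1.44 with siAURKA-1 and 0.44 with siAURKA-2.

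In most of the other leading genes siAURKA-1 was low and siAURKA-2 high. LCP1, which encodes L-plastin, a bundler of actin filaments, had -1.78 with siAURKA-1, 1.15 with siAURKA-2, 0.00 with MLN8237, 0.47 with siNT and -0.39 with DMSO. PTX3, a secreted pattern recognition protein of inflammation, had -1.29, 1.54, 0.00, 0.91 and -0.22 in that order, and PELI1, an E3 ubiquitin ligase of Toll-like and interleukin-1 receptor signalling, had -1.62, 0.86, 0.00, 0.54 and -0.08. In each of these the siRNA arrays were the outermost of the 5, which their choice by the gap between the siRNAs favours. SUN3, a member of the nuclear envelope SUN family, had -1.39 and 1.55, and INHBA, the inhibin beta A subunit that forms activin A, had -1.31 and 0.998. FST, which binds and inhibits activin, lay on the same side as INHBA (-1.11 and 0.79, over 3 probe sets from -2.23 to -1.64). HSD11B1, which regenerates cortisol, had -1.16 and 1.12, but its DMSO value of -1.25 lay below siAURKA-1. RNASE7, an antimicrobial ribonuclease of skin (-0.67 and 1.21), CMTM3 (-0.76 and 1.23) and the non-coding RNA gene CRNDE (-0.996 and 1.08) shared the pattern.

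Some histone genes differed between the siRNAs. H2BC5, a histone H2B gene, had 0.00 with siAURKA-1 and 1.89 with siAURKA-2, against 0.23 with MLN8237, -0.37 with siNT and -0.06 with DMSO, so siAURKA-2 alone was apart. H2AC6, a histone H2A gene, had -0.99 and 1.05, with siNT at -1.07. Other histone genes, named here after their values were seen, were H2BC4 (difference -0.89), H2BC8 (-0.79) and H2AC8 (-0.69). Of 64 histone genes taken by symbol, 5 were lower with siAURKA-1 by at least 1.5-fold and 1, H2BC9, that much higher (0.85), against 3.99% and 3.68% of all genes. Relative to the 3 other arrays, 5 were at least 1.5-fold up with siAURKA-2 (1.98% of all genes). The median of the 64 was -0.03, and since they were grouped after values had been seen, the count supports nothing.

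**Figure D2:**
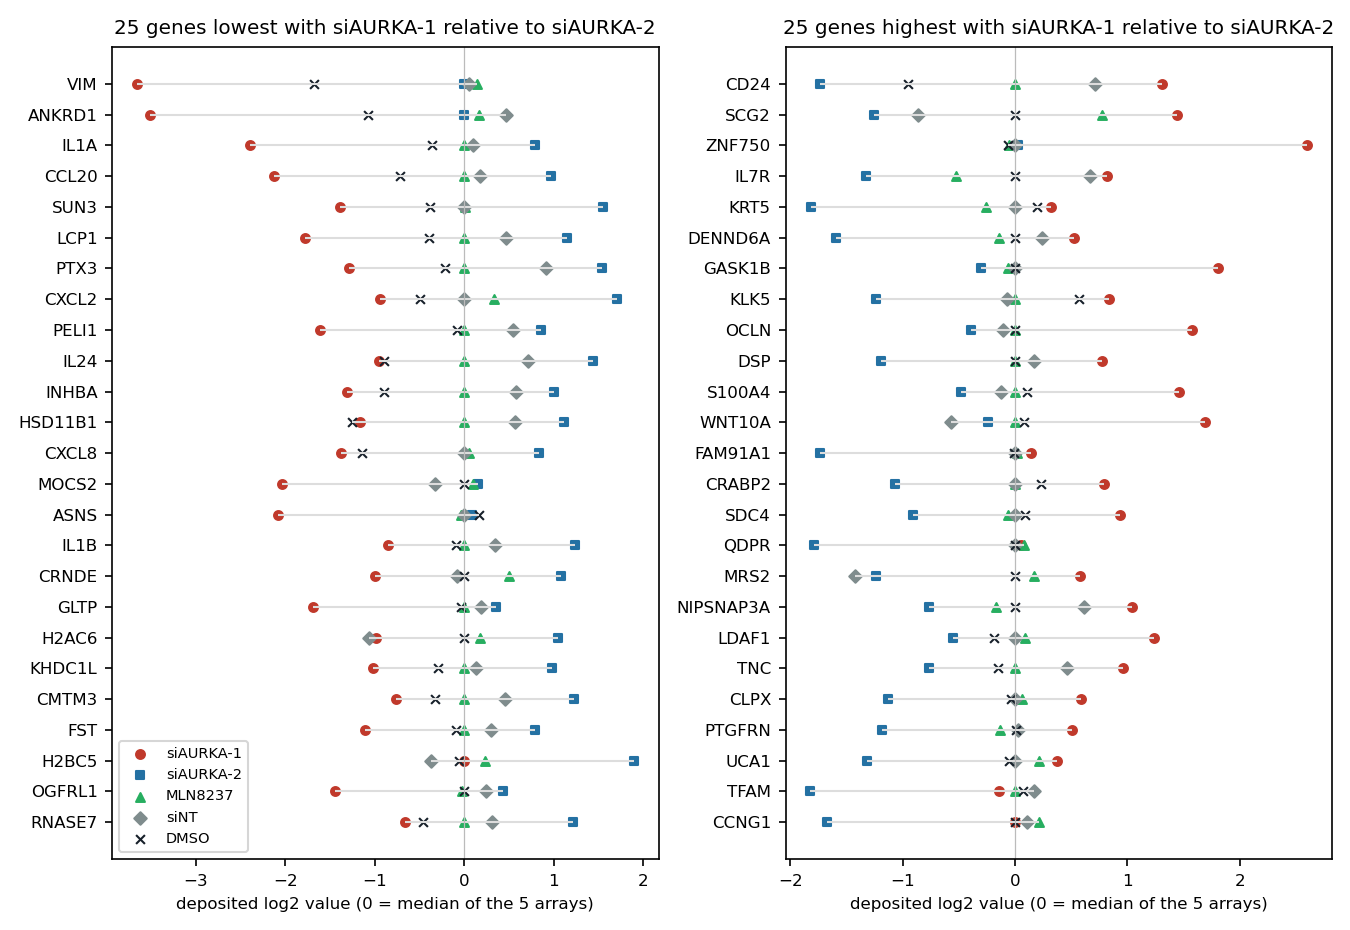
Deposited log2 values (horizontal axes, 0 is the median of the 5 arrays) of the 25 genes lowest and the 25 highest with siAURKA-1 relative to siAURKA-2, with 1 symbol per array. For VIM and ASNS only siAURKA-1 is far from 0 among the siRNA arrays, whereas for IL1A, LCP1 and CD24 the siRNAs lie at opposite ends.

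Genes at the higher end were led by CD24, a surface glycoprotein used to sort carcinoma cells. Its values were 1.30 with siAURKA-1, -1.74 with siAURKA-2, 0.00 with MLN8237, 0.71 with siNT and -0.95 with DMSO, an 8.24-fold difference between the siRNAs from 1 probe set. SCG2, encoding the secretory granule protein secretogranin II, had 1.44, -1.26, 0.77, -0.87 and 0.00 in that order. The controls of both genes were themselves well apart. ZNF750, a transcription factor that drives terminal differentiation of epidermis, had 2.60 with siAURKA-1 and lay between -0.06 and 0.02 on all 4 other arrays. Its 4 probe sets gave differences of 0.62 to 2.81, 3 of them at least 2-fold. GASK1B (1.80 with siAURKA-1 and -0.31 with siAURKA-2), the tight junction gene OCLN (1.58 and -0.39), the calcium-binding S100A4 (1.46 and -0.49) and WNT10A, a Wnt ligand of skin appendages (1.69 and -0.24), were likewise high with siAURKA-1. GASK1B rested on 3 of its 5 probe sets.

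Other genes at this end were low with siAURKA-2, with siAURKA-1 nearer to the middle of the arrays. KRT5, the basal keratin, had 0.32 with siAURKA-1 and -1.82 with siAURKA-2, against -0.26 with MLN8237, 0.00 with siNT and 0.19 with DMSO. FAM91A1, a vesicle trafficking gene, had 0.15 and -1.74, QDPR, which recycles tetrahydrobiopterin, 0.05 and -1.79, and DENND6A, a RAB exchange factor, 0.52 and -1.60. Differences of single probe sets ranged from 0.05 to 1.91 for QDPR and from 0.26 to 2.21 for FAM91A1. TFAM, which packages and transcribes mitochondrial DNA, had -0.14 and -1.82, and CLPX, the mitochondrial ClpXP protease subunit, 0.58 and -1.13. For KRT5, FAM91A1, DENND6A and CLPX siAURKA-1 was also the highest array. CCNG1, encoding cyclin G1, had 0.00 with siAURKA-1 but -1.67 with siAURKA-2, and all 5 of its probe sets were at least 2-fold apart. For these genes the MLN8237, siNT and DMSO arrays spanned less than the gap between the siRNAs, which is partly built in because they were picked for that gap. MRS2, a mitochondrial magnesium channel, was an exception, since siNT (-1.42) lay as low as siAURKA-2 (-1.24), with siAURKA-1 at 0.58 and DMSO at 0.00. Among genes with 3 or more probe sets, those whose least different probe set was furthest up were SDC4, a heparan sulfate proteoglycan (1.77 to 1.98), CRABP2, a retinoic acid binding protein (1.73 to 2.22), S100A4 (1.73 to 2.05), IL7R (1.67 to 2.15) and the protease gene CTSV (1.67 to 1.87).

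Epithelial genes were mixed, with a few large values on the side of siAURKA-1. Among 14 measured basal keratinocyte genes, 4 reached 1.5-fold on the higher side (3.68% of all genes) and 0 on the lower: KRT5 (2.13), the integrin subunit ITGA6 (1.21), KRT15 (0.98) and the cadherin CDH3 (0.92). The list median was 0.14, where that of all genes was 0.00. Of 29 keratinocyte differentiation genes, 4 were that much higher and 0 lower, with a median of 0.03. They were the kallikrein proteases KLK5 (2.07), KLK6 (1.63) and KLK8 (0.87) and the calprotectin subunit S100A9 (1.21), whereas IVL, encoding involucrin (-0.11), and SPRR1A (-0.22) were nearly level. KLK5 was 0.83 with siAURKA-1 but -1.24 with siAURKA-2, and KLK6 was 0.46 and -1.17, so siAURKA-2 was the lowest array for both. S100A9 was instead highest with siAURKA-1 (1.21), with siAURKA-2 at 0.00 and MLN8237 at -0.92. Of 21 squamous transcription factors, ZNF750 (2.58), the epithelial regulator GRHL3 (1.30) and the splicing regulator ESRP1 (0.60) were at least 1.5-fold higher and KLF4 (-1.42) lower.

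Cell junction genes were examined as a list drawn up after values had been seen, so its count supports nothing. Of 35 measured, 11 were higher with siAURKA-1 by at least 1.5-fold and 1 lower, against 3.68% and 3.99% of all genes. Relative to the 3 other arrays, 11 were at least 1.5-fold up with siAURKA-1 (2.61% of all genes), and 9 had siAURKA-1 as the highest and siAURKA-2 as the lowest of the 5 arrays (5.97%). DSP, encoding the desmosomal plaque protein desmoplakin, had 0.78 with siAURKA-1 and -1.19 with siAURKA-2, with 0.00 on the MLN8237 array, 0.17 with siNT and 0.00 with DMSO. The tight junction genes OCLN (1.97), CLDN4 (1.34), CGN (1.18) and MARVELD3 (1.09), the polarity gene PALS1 (1.35), CTNNB1, encoding beta-catenin (1.14), and CDH1, encoding E-cadherin (1.06), were also higher, and CLDN1 was lower (-1.09). Both VIM and CDH1 thus differed by over 2-fold, in opposite directions. Of 24 mesenchymal genes, however, 3 were at least 1.5-fold lower and 3 higher (3.99% and 3.68% of all genes), around a median of 0.00. They were VIM (-3.66), SNAI2 (-0.60) and MMP3 (-0.59) against S100A4 (1.94) and the matrix protein genes TNC (1.72) and SPARC (1.61). TNC had 1 of 4 probe sets without a difference (-0.04).

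By at least 1.5-fold, NF-kB target and cytokine genes were lower with siAURKA-1 than siAURKA-2 in the largest share of the 32 lists. At any size 22 were lower, a smaller share than the 41 of 42 DNA replication genes and 34 of 37 mitotic genes. The 32 lists were chosen with earlier results of these data known, so their counts are descriptions and not independent support. Of 26 measured, 12 were at least 1.5-fold lower (46.2%, against 3.99% of all genes) and 0 higher, 10 were at least 2-fold lower (against 1.19%), and the median was -0.49. IL1A, an alarmin cytokine of keratinocytes, had -2.39 with siAURKA-1, 0.80 with siAURKA-2, 0.00 with MLN8237, 0.09 with siNT and -0.36 with DMSO, a 9.09-fold difference. CCL20, a chemokine for CCR6-bearing cells, had -2.13, 0.97, 0.00, 0.17 and -0.72 in that order. In both, siAURKA-1 was more than 2-fold below every other array.

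The neutrophil chemokine genes differed in which siRNA array was far out. CXCL2 had -0.95 with siAURKA-1, 1.71 with siAURKA-2, 0.33 with MLN8237, 0.00 with siNT and -0.49 with DMSO. CXCL8, encoding interleukin 8, had -1.38, 0.83, 0.06, 0.00 and -1.14, so DMSO lay near siAURKA-1, while CXCL1 had -1.27, 0.00, 0.31, 0.08 and -0.34 and was low with siAURKA-1 alone. IL6 and the adhesion receptor gene ICAM1 were high with siAURKA-2 alone (1.07 and 1.08, with siAURKA-1 at -0.05 and -0.02). The 2 IL6 probe sets gave unlike differences between the siRNAs (-1.91 and -0.34). IL1B (-0.85 and 1.24) and IL24 (-0.95 and 1.43) were low with siAURKA-1 and high with siAURKA-2, although DMSO lay level with siAURKA-1 for IL24 (-0.90).

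Feedback inhibitors and subunits of NF-kB differed in the same direction as most cytokines, mostly by smaller amounts, and not all were low with siAURKA-1. TNFAIP3, encoding the inhibitor A20, had -0.59 with siAURKA-1 but 1.11 with siAURKA-2, and DMSO was lower still (-1.11). RELB differed by -0.91, the inhibitor genes NFKBIZ and NFKBIA by -0.60 and -0.57, and the subunit genes NFKB2 and NFKB1 by -0.42 and -0.37. For RELB and NFKBIZ siAURKA-1 was at 0.00 and siAURKA-2 was the highest array (0.91 and 0.60). NFKBIA was above the other arrays with both siRNAs (0.26 with siAURKA-1 and 0.83 with siAURKA-2). NFKB1 was highest with siNT (0.34, with siAURKA-2 at 0.22). TNF, CSF3, TNFAIP2, BCL3, CXCL5 and CCL5 differed by at most 0.15 in size. IL36G differed by -0.39, and CXCL3, CXCL6, CCL2 and LIF by -0.18 to -0.14. Relative to the 3 other arrays, 8 of the 26 were at least 1.5-fold down with siAURKA-1 (3.54% of all genes) and 12 were at least 1.5-fold up with siAURKA-2 (1.98%). On 9 of the 26 genes siAURKA-1 was the lowest and siAURKA-2 the highest of the 5 arrays (5.86% of all genes).

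**Figure D3:**
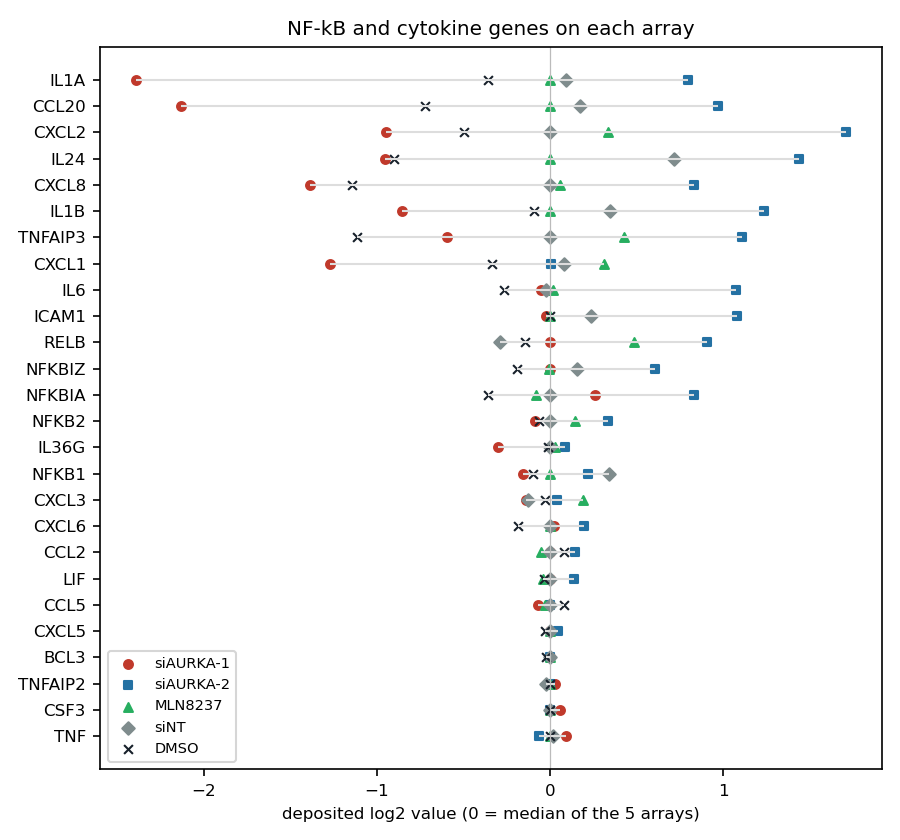
Deposited log2 values (horizontal axis, 0 is the median of the 5 arrays) of the 26 NF-kB and cytokine genes, ordered by siAURKA-1 minus siAURKA-2, with 1 symbol per array. In the top 7 rows siAURKA-2 is at the right end and siAURKA-1 or DMSO at the left, and below RELB the arrays lie closer together.

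Promoters of some of these genes are shown as examples of a short motif that part of the list holds. The motif GGANTTTCC, a form of the NF-kB site, was searched on both strands in RefSeq promoter windows of 300 bases (GRCh38.p14, 250 before to 50 after the gene start). It was found in 12 of the 21 list members with a window (57.1%), against 449 of 27305 promoters (1.64%), and in 7 of the 11 members with a window that were lower with siAURKA-1 by at least 1.5-fold. IL1A, CCL20, IL24 and IL1B, among the members that differed most, were not among those found with it. CXCL3, CXCL5, CXCL6, NFKBIA and NFKB1, each under 1.5-fold apart, were. NF-kB targets are textbook carriers of this site, so the share describes the list, and a match is a run of letters, not evidence of binding. Only promoters with a match in the 150 bases before the start are printed. NFKBIZ and ICAM1 are among the 12 with a match in the 300-base window but had none in those 150 bases. The 150 bases before the start are printed 5′ to 3′ on the gene's strand, with the match in capitals, for CXCL2 (chr4:74099196-74099345, minus strand), CXCL8 (chr4:73740419-73740568, plus strand), IL6 (chr7:22727050-22727199, plus strand) and TNFAIP3 (chr6:137867109-137867258, plus strand, match on the opposite strand).
CXCL2: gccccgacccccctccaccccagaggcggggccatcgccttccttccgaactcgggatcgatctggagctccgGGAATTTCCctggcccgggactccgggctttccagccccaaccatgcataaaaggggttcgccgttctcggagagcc
CXCL8: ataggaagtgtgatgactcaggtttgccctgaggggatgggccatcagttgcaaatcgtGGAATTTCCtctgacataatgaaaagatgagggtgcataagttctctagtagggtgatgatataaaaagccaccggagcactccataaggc
IL6: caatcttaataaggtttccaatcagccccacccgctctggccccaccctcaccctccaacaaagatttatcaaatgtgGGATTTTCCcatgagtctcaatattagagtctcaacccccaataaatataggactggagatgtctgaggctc
TNFAIP3: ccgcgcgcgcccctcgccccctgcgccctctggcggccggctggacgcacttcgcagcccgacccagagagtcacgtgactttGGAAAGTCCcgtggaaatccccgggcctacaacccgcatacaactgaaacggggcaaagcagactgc
The match begins 77 bases before the start in CXCL2, 91 in CXCL8, 72 in IL6 and 67 in TNFAIP3. CXCL2 and CXCL8 were on opposite sides with the siRNAs, whereas IL6 was apart with siAURKA-2 alone.

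Growth factor feedback genes went both ways, with the largest differences on the side of the cytokines. HBEGF, a ligand of the EGF receptor, had -0.91 with siAURKA-1, 0.82 with siAURKA-2, 0.00 with MLN8237, 0.28 with siNT and -0.25 with DMSO. DUSP4, a phosphatase that switches off MAP kinases, had -0.88, 0.67, 0.00, 0.25 and -0.48. In both genes the siRNA arrays were the lowest and the highest, which their choice by the gap between the siRNAs favours. Of 23 MAPK feedback genes and EGF ligands, 5 were lower with siAURKA-1 by at least 1.5-fold (HBEGF, DUSP4, DUSP5, EREG and SPRY2) and 1, DUSP2, higher, against 3.99% and 3.68% of all genes, and the median was -0.07. At any size 16 were lower and 7 higher. Among 23 immediate early genes 4 were lower, namely KLF4 (-1.42), FOSL1 (-1.24), MYC (-0.74) and KLF6 (-0.60), and IER2 was higher (0.61), which is 17.4% and 4.35% of the list against 3.99% and 3.68% of all genes.

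YAP-responsive and TGF-beta responsive genes held large values in both directions. Of 20 YAP-responsive genes, 6 were lower with siAURKA-1 by at least 1.5-fold and 1 higher (30% and 5%, against 3.99% and 3.68% of all genes), with a median of -0.18. Besides ANKRD1 (-3.51) these included NT5E, the surface ectonucleotidase CD73 (-1.85), and the matricellular gene CCN1 (-1.02), while AMOTL1, an angiomotin that binds YAP, was higher (1.09). The NT5E probe sets ranged from -2.33 to -0.01. Of 19 TGF-beta responsive genes, 5 were higher by that much and 3 lower (26.3% and 15.8%, against 3.68% and 3.99%), with a median of 0.00. PMEPA1, a TGF-beta feedback inhibitor (1.25), and ID2 and ID3, inhibitors of basic helix-loop-helix factors (1.23 and 1.04), were higher, and INHBA, FST and CDKN2B (-0.69) were lower. CDKN2B was nonetheless above the remaining arrays with both siRNAs (0.58 with siAURKA-1 and 1.27 with siAURKA-2). ID2 and ID3 stood out with siAURKA-1 (1.18 and 1.04), and PMEPA1 was low with siAURKA-2 (-1.25). For PMEPA1 the siNT (0.95) and DMSO (-0.55) arrays lay further apart than the siRNA arrays.

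Mitotic and DNA replication genes were almost uniformly lower with siAURKA-1 than siAURKA-2, by modest amounts. Both lists were chosen with earlier results of these data known, so their counts only describe them. Of 37 mitotic genes 34 were lower at any size, against 8119 lower and 8294 higher among all genes. In addition, 12 were at least 1.5-fold lower (32.4%, against 3.99%) and 0 higher, with a median of -0.46. TOP2A, encoding topoisomerase II alpha, had -1.30 with siAURKA-1, 0.12 with siAURKA-2, 0.00 with MLN8237, 0.06 with siNT and -0.01 with DMSO, so siAURKA-1 alone was apart. ANLN, of the cytokinetic ring (-0.78 and 0.24), and the checkpoint kinase gene BUB1 (-0.51 and 0.39) were low with siAURKA-1 and slightly above the middle with siAURKA-2. Set against the median of the 3 other arrays, the median gene of the 37 lay at -0.48 with siAURKA-1 and at 0.00 with siAURKA-2.

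Replication genes differed in another way, being low on both siRNA arrays. Their median relative to the 3 other arrays was -0.83 with siAURKA-1 but -0.39 with siAURKA-2, and 28 and 13 of the 42 measured were at least 1.5-fold below, against 3.54% and 2.2% of all genes. Directly compared, 41 of the 42 were lower with siAURKA-1 at any size, 8 of them by at least 1.5-fold (19.0%), and 0 were that much higher, with a median of -0.32. POLE2, a subunit of the leading-strand polymerase, had -1.60 with siAURKA-1, -0.25 with siAURKA-2, 0.00 with MLN8237, 0.06 with siNT and 0.55 with DMSO. TYMS, thymidylate synthase, differed by -1.24, POLA2, of the primase complex, by -1.01 and GINS2, of the replicative helicase, by -0.87. MCM2 was level between the siRNAs (-0.82 and -0.81), both below the other arrays, and GINS1 was the 1 member lower with siAURKA-2 (0.45).

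**Figure D4:**
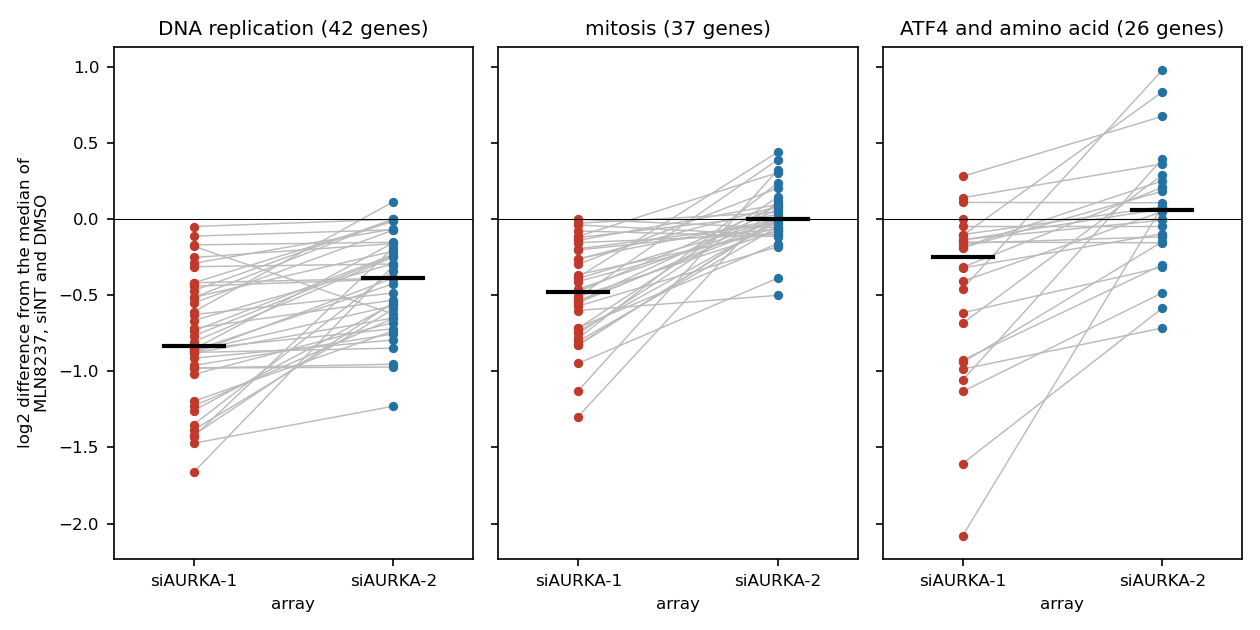
Difference of each siRNA array from the median of the MLN8237, siNT and DMSO arrays (vertical axis, log2) for DNA replication, mitosis and ATF4 and amino acid genes. Points are genes, grey lines join the same gene on the siAURKA-1 (left) and siAURKA-2 (right) arrays, and black bars are medians: -0.83 and -0.39, -0.48 and 0.00, and -0.25 and 0.06.

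The POLE2 promoter is shown as an example of TTTNNCGC, a loose form of the E2F element in which N is any base. A match is a run of letters, not evidence of binding. The element, searched on both strands in the same windows, was found in 21 of the 37 replication genes with a window (56.8%), in 3 of 33 mitotic genes (9.09%) and in 1884 of 27305 promoters (6.9%). The 150 bases before the POLE2 start (GRCh38.p14, chr14:49688215-49688364, minus strand) have the match, 81 bases before the start, in capitals.
POLE2: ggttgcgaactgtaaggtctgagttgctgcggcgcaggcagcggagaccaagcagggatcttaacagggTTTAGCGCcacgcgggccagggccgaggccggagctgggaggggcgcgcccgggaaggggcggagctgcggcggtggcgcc
POLE2 and MCM2 both hold the element, and they differed between the siRNAs by -1.36 and -0.01.

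Centromere protein genes, grouped by symbol after values had been seen, had 8 of 20 at least 1.5-fold lower with siAURKA-1, 0 higher and a median of -0.37, where 3.99% of all genes were that much lower. The grouping means that this count supports nothing. CENPS (-1.38) and CENPX (-1.34), which form a histone-fold complex with roles at kinetochores and stalled forks, CENPH (-1.28) and CENPU (-1.19) were at least 2-fold lower. On the siAURKA-2 array these 4 lay between -0.29 and 0.02, near the other arrays.

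Amino acid response genes controlled by the transcription factor ATF4 were mostly lower with siAURKA-1, 22 of 26 at any size. Of the 26 measured, 9 were at least 1.5-fold lower (34.6%, against 3.99%) and 0 higher, with a median of -0.38. This list too was chosen with earlier results known, so the count only describes it. ASNS, asparagine synthetase, had -2.08 with siAURKA-1, 0.08 with siAURKA-2, -0.03 with MLN8237, 0.00 with siNT and 0.17 with DMSO. The 4 arrays other than siAURKA-1 were almost level, and the 4 ASNS probe sets gave differences of -2.33 to -2.06. PSAT1, of serine synthesis, was -1.28 and -0.26, and SLC7A11, the cystine transporter, -1.06 and 0.40, although MLN8237 was also low for SLC7A11 (-0.66). SESN2, a stress-induced inhibitor of mTORC1 signalling, was -0.46 and 0.98 and was thus apart mainly with siAURKA-2. ATF4 itself, named after its value was seen, had -0.85 with siAURKA-1 and -0.06 with siAURKA-2. ATF3, VLDLR, PSPH and SLC7A5 each differed by 0.00, but the 7 ATF3 probe sets ranged from -1.52 to 0.22, so that value covers probe sets that disagree. The lowest PSPH probe set was at -0.71. Among 19 aminoacyl-tRNA synthetases, which charge tRNAs, WARS1 (-1.41), CARS1 (-1.22) and SARS1 (-0.97) were lower with siAURKA-1 by at least 1.5-fold, 0 were higher, and the median was -0.19. The WARS1 probe sets ranged from -1.71 to -0.03.

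The ASNS promoter is printed because it holds the letters of an ATF4 element and ASNS stood furthest out in this list. The letters TGATGNAA, a C/EBP-ATF element, were searched on both strands and found in 5 of the 20 list members with a window (25%) and in 1003 of 27305 promoters (3.67%). Of the 8 members with a window that were at least 1.5-fold lower, 1 held it. The match lies 68 bases before the start and is in capitals (GRCh38.p14, chr7:97872409-97872558, minus strand).
ASNS: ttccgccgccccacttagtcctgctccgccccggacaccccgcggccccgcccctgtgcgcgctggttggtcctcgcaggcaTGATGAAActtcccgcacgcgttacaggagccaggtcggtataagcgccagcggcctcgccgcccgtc

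Interferon-stimulated genes were mostly lower with siAURKA-1, 19 of 24 at any size with 3 higher. Among the 24 interferon-stimulated genes, 4 were lower with siAURKA-1 by at least 1.5-fold and 1 higher (16.7% and 4.17%, against 3.99% and 3.68% of all genes), with a median of -0.12. Relative to the 3 other arrays, 6 were at least 1.5-fold up with siAURKA-2 (1.98% of all genes). IFIT2, an RNA-binding antiviral protein, had 0.14 with siAURKA-1 but 1.42 with siAURKA-2, and ISG20, an exonuclease, 0.00 and 1.08, so siAURKA-2 was the highest array for both. HERC6 was higher with siAURKA-1 (0.74). The 11 RNA sensor genes, which include Toll-like receptors and helicases that detect double-stranded RNA, had a median of 0.02 and none was 1.5-fold apart. In the RNA interference machinery AGO3 (-0.65) and PRKRA (-0.61) were lower, AGO2, the slicing Argonaute, was higher by 0.51, and the median of 13 was 0.00. Among 23 p53 targets the median was 0.06, with SESN2 (-1.44), TP53INP1 (-1.01), SESN1 (-0.69) and GDF15 (-0.69) lower and CCNG1 (1.67) and TIGAR (0.95) higher. The 2 TP53INP1 probe sets were unlike (-1.96 and -0.05). GDF15 was nonetheless high on both siRNA arrays (0.86 with siAURKA-1 and 1.55 with siAURKA-2), as was CDKN1A, encoding p21 (1.05 and 0.75). Among BCL2 family genes the pro-apoptotic BIK (-1.45) was high with siAURKA-2 (1.23), and the median of 18 was 0.00.

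Ribosomal, proteasome and most metabolic lists had medians within 0.1 of 0. The 22 ribosomal protein genes had differences between -0.07 and 0.22, and at any size 21 were higher with siAURKA-1 and 1 lower. The 26 proteasome genes had a median of 0.09, with PSMA1 (0.82) the only one 1.5-fold apart. The 2 PSMA1 probe sets disagreed in direction (-0.19 and 1.84). Ribosome biogenesis had a median of 0.08 over 28 genes, with NOLC1 (-0.98) lower and WDR12 (0.67) higher. Cholesterol synthesis had a median of -0.03 over 19 genes, and PMVK, phosphomevalonate kinase (-1.34), was the exception. Hypoxia and glycolysis genes leaned to siAURKA-1, with a median of 0.13 and 19 of 26 higher at any size. By at least 1.5-fold 4 were higher (15.4%, against 3.68% of all genes) and 0 lower: PGAM1 (0.88), P4HA1 (0.84), PDK1 (0.80) and LDHA (0.61). For PGAM1 and LDHA siAURKA-2 was the array apart (-0.95 and -0.64, with siAURKA-1 at -0.06 and -0.04). NRF2 targets had a median of 0.08 over 19 genes, with AKR1B10, an aldo-keto reductase (1.27), and GCLC, of glutathione synthesis (0.60), higher and SLC7A11 (-1.45) lower. In the 19 heat shock genes (median 0.05) HSPA1B was higher (0.70) and HSPB1 lower (-0.71). Actin and myosin genes had a median of 0.02 over 22, with MYH10 (0.78) and TPM2 (0.70) higher and LCP1 (-2.93) lower. Matrix proteases and their inhibitors had a median of 0.06 over 20 genes, with MMP1 (0.996) and TIMP2 (0.62) higher and MMP3 lower. The endoplasmic reticulum chaperone list had a median of 0.04, and HERPUD1 (-0.90) was high with siAURKA-2.

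**Figure D5:**
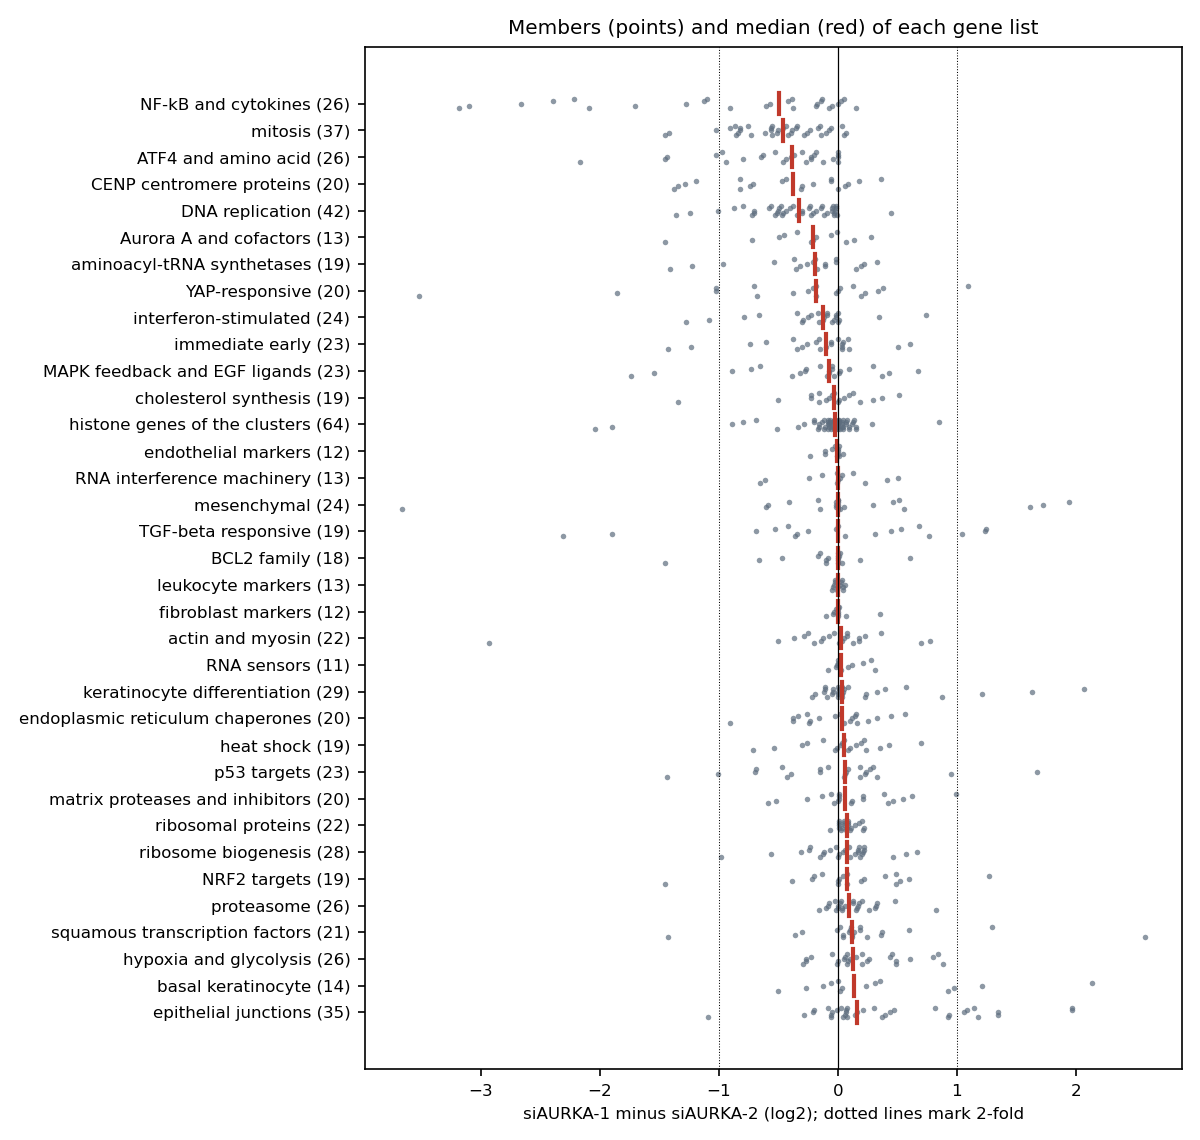
Difference siAURKA-1 minus siAURKA-2 (horizontal axis, log2) for members of each gene list (points) with the list median (red bars) and the number of genes in parentheses. Medians run from -0.49 for NF-kB and cytokine genes to 0.16 for epithelial junction genes, and dotted lines mark 2-fold.

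The siNT and DMSO arrays, which share no array with the siRNA pair, differed at least 2-fold in 54 genes (0.296%). Of these, 18 were also at least 2-fold apart between the siRNAs, which is 33.3% of the 54 and 4.57% of the 394. In 14 of the 18 the signs were opposite. VIM, ANKRD1, IL24, INHBA, HSD11B1, CXCL8 and TNFAIP3 were higher with siNT than with DMSO by 1.74, 1.55, 1.62, 1.48, 1.81, 1.14 and 1.11, and lower with siAURKA-1 than siAURKA-2. CD24 was higher with siNT (1.66) and higher with siAURKA-1. Over all genes the differences of these pairs were nearly unrelated (Pearson r -0.051, Spearman rho 0.024), a description across genes, which are not independent replicates.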

How the data were processed

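Expression was measured on 5 Affymetrix GeneAtlas arrays, 1 per group, from RNA extracted with ISOGEN and labelled by a 3′ in vitro transcription kit, per the labels' protocols. The values deposited by the authors were read as log2 signal. The submitters' processing notes name RMA, robust multi-array averaging, and the sources used here do not give software or log base. The median over the 5 arrays was exactly 0 in all 49386 probe sets, which shows centring of every probe set. A difference between arrays is unaffected by centring, but expression levels are lost, so no filter on low genes was possible, and values at background cannot be recognised.

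Probe sets naming 1 gene (45259) were used, with symbols updated by Entrez number (45178 matched), while 93 controls, 1327 naming several genes and 2713 without a listed gene were set aside. A gene's value was the median of its probe sets (18239 genes, 6416 with 1 probe set). Groups followed the treatment label. With 1 array per group no test was run and genes were counted at 1.5-fold and 2-fold. The 32 lists had 727 entries, 44 of them not analysed here. The comparison, lists and named genes were chosen with earlier results of these data known. Named genes were the 25 highest and lowest, the 10 highest and lowest by their least different probe set among genes with 3 or more, the 4 highest and lowest of each list, all Aurora and NF-kB list members and the 5 genes on each side of the 2-fold threshold. Others are named after their values were seen. Promoter sequences are from RefSeq (GRCh38.p14). Computation used Python 3.11.15 with pandas 2.3.3, and the gene summary was tested on simulated data.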

Additional observations from a re-analysis of the deposited data

Results flagged for a closer look

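SUN3 was the 1 gene at least 2-fold below siNT with siAURKA-1 (-1.39) and at least 2-fold above it with siAURKA-2 (1.55). It was read by 1 probe set, and the difference between the siRNAs was not tested. Probe sets without a listed gene were outside the gene comparison: 60 of 2713 (2.21%) were at least 2-fold apart between the siRNAs, 27 higher and 33 lower with siAURKA-1, against 11 (0.406%) between siNT and DMSO. Among probe sets naming 1 gene, 3.26% were at least 2-fold apart between the siRNAs.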

How the results depend on the processing

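No paired analysis was possible because each group has 1 array, and for the same reason no array could be left out. The count of genes apart depends on the threshold: 1398 (671 higher and 727 lower with siAURKA-1) at 1.5-fold and 87 (36 and 51) at 3-fold. Limiting it to genes with several probe sets that all share a direction left 247 (113 and 134), since fewer genes are counted. The median of NF-kB and cytokine genes was -0.49 and their mean -0.95, as a few members differ far more than the rest. All 106 named genes at least 2-fold apart kept their direction under the alternatives run for single genes, where these gave a value, namely centring each array, the mean of probe sets, probe sets not marked as shared, and differences taken per probe set, the last added after the data were seen. Of these, 12 were under 2-fold in at least 1 of them. The mean and median differed in sign for p53 targets (-0.04 and 0.06) and for actin and myosin genes (-0.09 and 0.02), and the TGF-beta median was 0.29 with the mean of probe sets. Total counts of genes with siAURKA-1 apart, siAURKA-2 apart or opposite, taken against siNT alone, DMSO alone or their mean, stayed within 1.5 times of the values given. Within them, genes high with siAURKA-2 alone numbered 45 against DMSO alone, where 23 were given, and genes with both siRNAs on the same side numbered 13 against siNT alone and 10 against DMSO alone, where 5 were given. The cause was not tested.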
